A study of Mus musculus with 2 samples.

Results

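The genes described here are 9 genes that mark the lineage of γδT17 cells, the interleukin-17-producing γδ T cells of skin: Cd163l1, Blk, Sox13, Maf, Zbtb16, Il7r, Cd44, Cd27 and Plek. They were taken by symbol from the 27998 genes of the count matrices, and each symbol named 1 row. Both groups were male wild-type C57BL/6J mice, young adults, with a large circular wound (1.8 cm across) on the dorsal skin. The wounds of WT_LW received PBS and those of TLR9agonist_LW received ODN2395, a CpG oligodeoxynucleotide that activates Toll-like receptor 9, on days 0, 3 and 6. Skin of the healed wound was taken for single-cell RNA sequencing 2 days after the scab had detached, in 1 library of cells pooled from several mice per group. The sample labels and the methods of the study name PBS for the control group, and another passage of the study names a control oligonucleotide. With 1 library per group there were no replicates, so no test between libraries was possible, and every interval below is a 95% interval for counting error only. Differences between the pooled mice or the cell preparations cannot be told apart from the treatment.

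γδT17 cells leave the thymus already committed to making interleukin-17 (IL-17), and settle in the dermis and other barrier tissues. Their programme is set early by the transcription factors SOX13 and MAF, with PLZF (encoded by Zbtb16) in innate-like T cells more broadly. Loss of the co-stimulatory receptor CD27 separates IL-17-producing from interferon-γ-producing γδ T cells, and the IL-7 receptor and the adhesion receptor CD44 are high on the IL-17 side. Cd163l1 encodes the scavenger receptor SCART1 and Blk a Src-family kinase, both long used as markers of these cells. Plek encodes pleckstrin, a cytoskeletal substrate of protein kinase C that is abundant in platelets and myeloid cells.

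All 9 genes are protein coding in the GENCODE M21 annotation of GRCm38. Cd163l1 (ENSMUSG00000025461) lies on the plus strand at chr7:140218267-140231145. The other 8 lie on the minus strand: Blk (ENSMUSG00000014453) at chr14:63372836-63417037, Sox13 (ENSMUSG00000070643) at chr1:133382303-133424377, Maf (ENSMUSG00000055435) at chr8:115682942-115707794, Zbtb16 (ENSMUSG00000066687) at chr9:48654297-48836222, Il7r (ENSMUSG00000003882) at chr15:9505788-9530176, Cd44 (ENSMUSG00000005087) at chr2:102811141-102901665, Cd27 (ENSMUSG00000030336) at chr6:125232622-125237010 and Plek (ENSMUSG00000020120) at chr11:16971206-17052381. RefSeq promoter windows on GRCm38.p6 were matched for 6 of the 9 genes, and 3 (Blk, Maf, Zbtb16) had no entry in the table. The 250 bases before the RefSeq start are printed for a gene high in the IL-17-expressing double-negative T cells described below, for the gene that was low there and for the gene that differed most upwards between the libraries. Capitals mark AACAAT (a SOX core), TGCTGA (the core of a MAF element) and TGACTCA (AP-1), each searched on both strands.
Cd163l1 (chr7:140218017-140218266, plus strand): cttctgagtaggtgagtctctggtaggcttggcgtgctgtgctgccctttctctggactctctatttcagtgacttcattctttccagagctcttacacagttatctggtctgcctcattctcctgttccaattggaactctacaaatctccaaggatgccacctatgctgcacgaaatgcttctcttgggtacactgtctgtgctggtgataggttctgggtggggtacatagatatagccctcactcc
Cd27 (chr6:125237028-125237277, minus strand): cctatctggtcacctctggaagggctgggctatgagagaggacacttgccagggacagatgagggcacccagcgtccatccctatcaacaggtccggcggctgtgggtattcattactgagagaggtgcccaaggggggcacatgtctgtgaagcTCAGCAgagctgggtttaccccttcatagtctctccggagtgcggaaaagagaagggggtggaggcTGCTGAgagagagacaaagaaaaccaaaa
Plek (chr11:17008719-17008968, minus strand, inside the longer gene model of GENCODE): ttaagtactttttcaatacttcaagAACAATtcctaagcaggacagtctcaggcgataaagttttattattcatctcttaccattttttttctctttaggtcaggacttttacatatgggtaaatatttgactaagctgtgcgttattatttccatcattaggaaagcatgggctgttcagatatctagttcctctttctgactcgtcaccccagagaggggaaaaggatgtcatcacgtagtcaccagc
The Cd163l1 window held none of the 3 letter strings. The Cd27 window held TGCTGA at bases 29 to 24 before the start and its reverse complement at bases 95 to 90. The Plek window held AACAAT at bases 225 to 220 before the start. These strings are common, and of 32851 promoter windows of the same length 9.42% held AACAAT, 16.08% TGCTGA and 4.46% TGACTCA, so a match is a description and not a binding site.

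After filtering and doublet removal 10395 cells with 85681280 unique molecular identifiers (UMIs, each 1 counted RNA molecule) were used for WT_LW and 11811 cells with 111120573 UMIs for TLR9agonist_LW. The 2 libraries shared 39 cell barcodes. Cells with at least 2 UMIs of Cd3d, Cd3e and Cd3g together were taken as T cells, which gave 3659 and 3905 cells with medians of 4430 and 4733 UMIs. They were split into 8 subsets by UMIs of genes that are not among the 9. The subset the results turn on had no UMI of Cd4, Cd8a, Cd8b1 or Foxp3 and at least 2 UMIs of Il17a, Il17f and Il23r (the IL-23 receptor) together, and is called Il17/Il23r double-negative after these genes. The other subsets were double-negative cells with 1 or 0 such UMIs, CD4 T cells that reached 2 such UMIs (Il17/Il23r CD4), other CD4 T cells, regulatory T cells (Foxp3-positive), CD8 T cells and mixed cells. The Il17/Il23r double-negative subset held 354 T cells of WT_LW (9.67%, Clopper-Pearson interval 8.74 to 10.7) and 1835 of TLR9agonist_LW (47.0%, interval 45.4 to 48.6). This share describes the gate, because the gate genes themselves differed: Il17a stood at 1509 counts per 1000000 UMIs (CPM, from UMIs summed over the cells of a subset) in the WT_LW subset and at 7643 in that of TLR9agonist_LW, against 64.1 and 72.6 for Il23r. Since RNA of T cell receptor genes was not used, the subset cannot be called γδ T cells from these values alone. A cell without a Cd4 UMI can still hold Cd4 RNA that was not counted, so the subset can hold CD4 T cells. Their part was not tested, and the Il17/Il23r CD4 subset held 276 cells in WT_LW and 333 in TLR9agonist_LW. Il17a RNA was also found in more cells other than T cells in TLR9agonist_LW, where 5.27% of fibroblasts without a Cd3 UMI had an Il17a UMI at a common depth of 1500 UMIs, against 1.57% in WT_LW. At that depth 0.358% of these fibroblasts in TLR9agonist_LW and 0.286% in WT_LW reached 2 UMIs of the 3 gate genes. The gate was set on all UMIs of a cell, and without thinning 7.63% of the fibroblasts in TLR9agonist_LW and 0.487% in WT_LW reached 2, at median depths of 11964 and 12655 UMIs. Without thinning it was 4.40% and 0.430% of macrophages or dendritic cells and 2.39% and 0% of mast cells, so these unthinned shares were higher in TLR9agonist_LW. The gated T cells had medians of 4571 UMIs in TLR9agonist_LW and 4402 in WT_LW. The fibroblasts and the macrophages or dendritic cells (7733.5 and 9064.5) were deeper, and the mast cells (1623.5 and 2208.5) shallower. None of these shares is therefore the background at the depth of the gated cells. The part of such free RNA in the gate was not tested.

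Blk, Zbtb16, Cd163l1 and Sox13 marked the Il17/Il23r double-negative subset in both libraries, Cd27 was nearly absent from it, and Maf, Cd44 and Il7r were only moderately higher there. By the rule used (a log2 ratio of at least 1 in size, in the same direction in both libraries), 4 of 9 members were higher in the subset than in all other T cells and 1 of 9 was lower. Of 12812 genes counted the same way, 1.06% were higher and 2.37% lower. A level summed over a subset does not tell apart fewer positive cells from less RNA per cell. The median log2 ratio of the 9 members was 0.96 in WT_LW and 1.82 in TLR9agonist_LW, against medians of -0.09 and -0.11 over all counted genes.

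Cd163l1 was the most abundant of the 4 marker genes. Its level in the Il17/Il23r double-negative subset was 792 CPM in WT_LW (interval 752 to 832, 1520 UMIs) and 474 in TLR9agonist_LW (interval 461 to 487, 5307 UMIs). In the other T cells it stood at 80.3 and 75.1 CPM. The subset was therefore 9.86-fold higher in WT_LW (interval 9.20 to 10.6) and 6.31-fold higher in TLR9agonist_LW (interval 5.91 to 6.74). Within the double-negative cells its level followed the gate genes, with 570 and 199.8 CPM in cells with 1 Il17/Il23r UMI and 152 and 113 in cells with none. It was much lower outside the double-negative cells, from 9.32 CPM in the mixed cells of WT_LW to 49.8 in CD8 T cells of TLR9agonist_LW.

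Blk was also highest in this subset, at lower levels than Cd163l1. It reached 298 CPM (interval 274 to 323) in the Il17/Il23r double-negative subset of WT_LW and 147 (interval 140 to 155) in that of TLR9agonist_LW, and 27.1 and 21.1 in the other T cells. In both CD4 subsets, regulatory T cells and CD8 T cells it stood between 3.02 and 14.3 CPM. The ratio of the subset to the other T cells was 10.99-fold in WT_LW and 6.97-fold in TLR9agonist_LW. Over the 9953 genes that reached 50 UMIs there, Zbtb16 ranked 5 by the smaller of its 2 log2 ratios, Blk 6, Cd163l1 7 and Sox13 10. The first 4 were the gate gene Il17a, Tdrd9, Cdh10 and Clnk, and the leading 10 also held Bcl2a1a, whose near-identical copies can split its reads, and 9530034E10Rik.

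Among the transcription factors, Zbtb16 and Sox13 were several-fold higher in the subset, and Maf was less particular to it. Zbtb16 stood at 96.9 and 106 CPM in the Il17/Il23r double-negative cells of WT_LW and TLR9agonist_LW, 9.45-fold and 7.04-fold above the other T cells. Sox13, a factor of the early γδT17 programme, stood at 56.2 (interval 46.1 to 67.9) and 32.5 (interval 29.2 to 36.01), which was 7.42-fold and 6.25-fold above the other T cells. Sox13 was sparse, with 108 and 364 UMIs in the subset, and at a depth of 1500 UMIs it was detected in 10.5% and 5.32% of the cells, against 0.714% and 0.256% of fibroblasts without a Cd3 UMI. Maf stood at 790 and 782 CPM in the subset, only 1.95-fold and 1.86-fold above the other T cells. Its level in regulatory T cells was higher still, with 841 and 874 CPM, and the intervals of the 2 subsets overlapped in WT_LW (751 to 831 against 803 to 879) but not in TLR9agonist_LW (766 to 798 against 827 to 923). The lowest Maf level was in CD8 T cells, at 121 and 125 CPM.

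The receptors divided into shared and excluded genes. Il7r, the receptor chain for the survival cytokine IL-7, was 1.39-fold higher in the Il17/Il23r double-negative subset of WT_LW (789 CPM) and 1.16-fold higher in that of TLR9agonist_LW (745). It was measured in all 8 T cell subsets of both libraries, from 450 to 828 CPM. In TLR9agonist_LW the highest level was in regulatory T cells (828, interval 782 to 876), followed by Il17/Il23r CD4 T cells (772, interval 739 to 806), whose interval overlapped that of the Il17/Il23r double-negative cells (729 to 761). Cd44, the hyaluronan receptor of antigen-experienced T cells, was highest in the Il17/Il23r double-negative subset of both libraries, at 737 and 751 CPM, 1.51-fold and 1.71-fold above the other T cells.

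Cd27 showed the opposite pattern. Only 12 UMIs in WT_LW and 28 in TLR9agonist_LW came from the Il17/Il23r double-negative cells, which is 6.25 (interval 3.23 to 10.9) and 2.499 (interval 1.66 to 3.61) CPM. The other T cells stood at 62.1 and 41.8 CPM, so the log2 ratio was -3.31 and -4.06. The Il17/Il23r CD4 T cells were also low, at 5.46 CPM in WT_LW (interval 3.05 to 9.001, overlapping that of the Il17/Il23r double-negative cells) and 9.66 in TLR9agonist_LW (interval 6.31 to 14.2, above it), whereas regulatory T cells reached 171 and 156 and CD8 T cells 109 and 95.3.

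Within the subset Plek was higher in TLR9agonist_LW than in WT_LW (log2 ratio 1.36), as were many genes, since 11.1% of 11904 had a log2 ratio of at least 1. Plek stood at 67.7 CPM (interval 56.6 to 80.4) in the Il17/Il23r double-negative subset of WT_LW, against 45.8 in the other T cells. In TLR9agonist_LW it stood at 174 (interval 166 to 182) against 49.2, so the subset was 1.48-fold above the other T cells in WT_LW and 3.54-fold above them in TLR9agonist_LW. The WT_LW difference changed sign between settings (log2 ratio -0.14 to 0.84), and that of TLR9agonist_LW ran from 1.08 to 2.10. At a depth of 1500 UMIs 6.23% and 21.6% of the subset's cells had a Plek UMI, against 3.71% and 1.79% of fibroblasts without a Cd3 UMI. In CD8 T cells Plek was next highest among subsets of TLR9agonist_LW, at 99.6 CPM, and in WT_LW it stood at 68.5, with an interval that overlapped that of the Il17/Il23r double-negative cells (59.5 to 78.5 against 56.6 to 80.4).

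**Figure D1:**
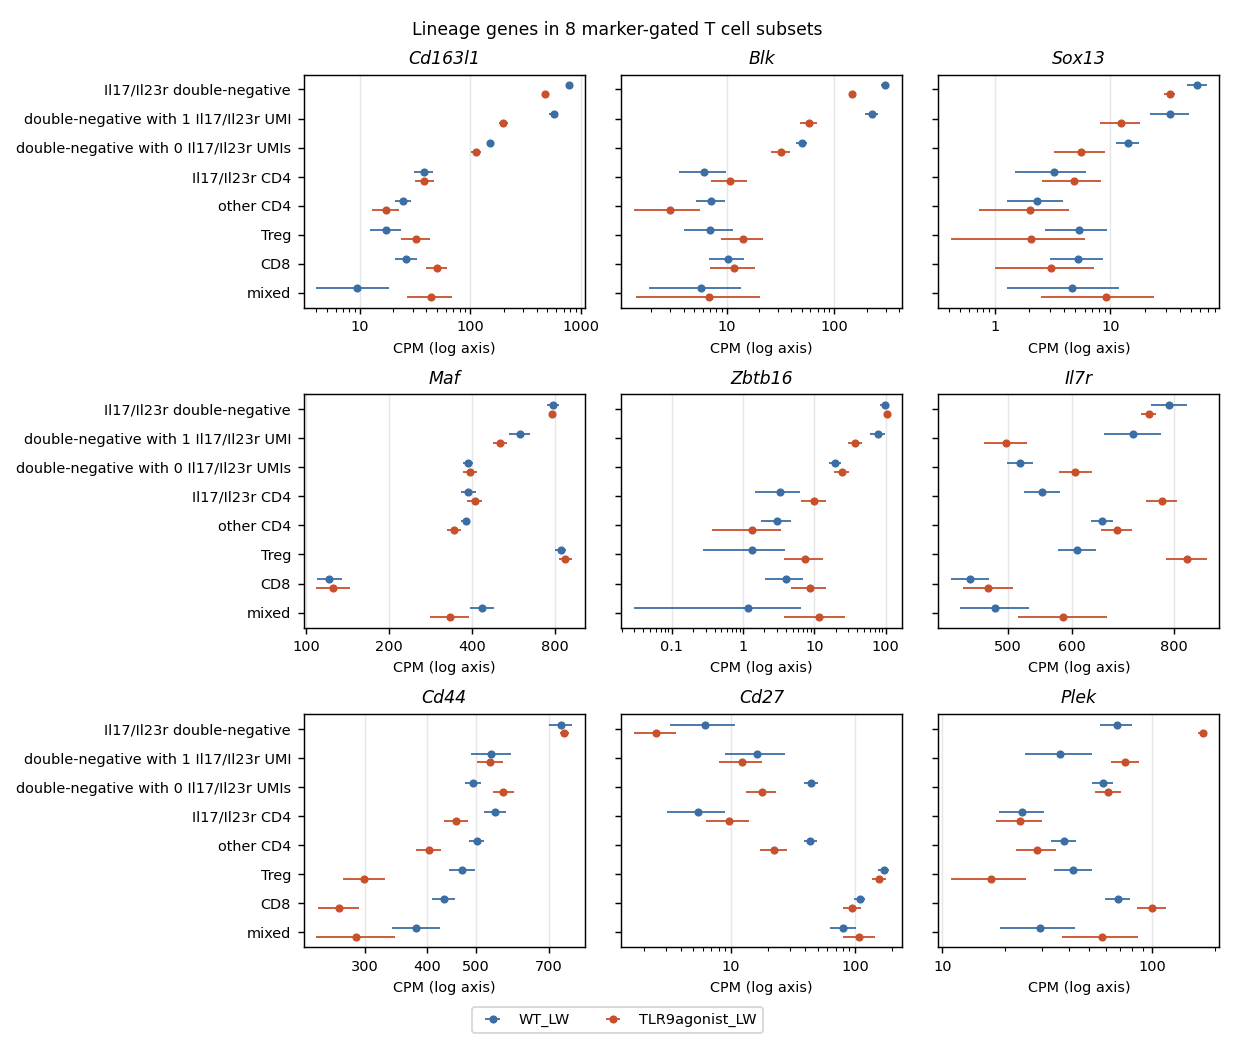
Level of each gene in CPM (log axis, range differing between panels) in 8 T cell subsets, with 1 point per library (blue WT_LW, orange TLR9agonist_LW) and 95% Poisson intervals for counting error. Cd163l1, Blk, Sox13 and Zbtb16 are highest in the Il17/Il23r double-negative cells, and Cd27 is low there (6.25 and 2.499) and in Il17/Il23r CD4 T cells (5.46 and 9.66).

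2 lists of genes with known roles were set beside the 9. Of 36 genes of a broader γδT17 programme, 3 were higher in the Il17/Il23r double-negative subset in both libraries by the same rule and 0 were lower, with medians of 0.65 and 0.47 on the log2 scale. Of all 12812 genes counted, 1.06% were higher and 2.37% lower. The 3 were Areg (amphiregulin, an epidermal growth factor receptor ligand, log2 ratio 2.49 in WT_LW and 3.00 in TLR9agonist_LW), the potassium channel gene Kcnk1 (2.73 and 2.30) and Ikzf3 (Aiolos, 1.93 and 1.41). Genes that did not pass were mixed, and those named here are examples not picked by a rule. Ccr2 (1.24 and 0.65) and Cxcr6 (1.40 and 0.90) were above 0 in both. Ccr6 (0.34 and -1.01), 5830411N06Rik (1.67 and -0.26), Serpinb1a (1.47 and -0.42) and Bcl11b (0.55 and -0.26) were below 0 in TLR9agonist_LW only. Lgals3 (-1.21 and -0.58), Gata3 (-0.60 and -0.67) and Ahr (-0.49 and -0.51) were below 0 in both. Of 19 genes of the interferon-γ and lymphoid homing programme, 0 were higher and 14 were lower in both libraries, with medians of -1.78 and -2.91. The gate leaves out cells with a Cd8a or Cd8b1 UMI, and the other T cells hold the whole CD8 subset. A lower level of genes high in CD8 T cells is therefore in part set by the gate, and this part was not tested. The 6 most strongly lower, by the smaller of their 2 ratios, were Nkg7 (-4.42 and -4.74), Ccl5 (-4.32 and -4.99), Ly6c2 (-4.92 and -3.65), Ifng (-3.35 and -4.21), Eomes (-3.09 and -4.80) and Klrd1 (-3.08 and -3.37).

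Between the libraries, within the Il17/Il23r double-negative subset, Cd163l1, Blk and Sox13 were lower in TLR9agonist_LW, Plek was higher, and Maf, Zbtb16, Il7r and Cd44 had ratios near 0. By a log2 ratio of at least 1 in size, 1 of 9 members was higher (Plek) and 2 were lower (Blk and Cd27), against 11.1% higher and 16.5% lower among 11904 genes. The median gene of the subset had a log2 ratio of -0.27, so a value near 0 lies above the median gene. The log2 ratio of TLR9agonist_LW over WT_LW was -0.74 for Cd163l1 (interval -0.82 to -0.66), -1.02 for Blk (interval -1.15 to -0.88) and -0.79 for Sox13 (interval -1.11 to -0.47). Relative to the median gene these were -0.47, -0.75 and -0.52. Cd27 stood at -1.32 on few UMIs (interval -2.34 to -0.21).

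The lower Cd163l1, Blk and Sox13 depended on how the subset was gated. When each cell was first thinned to 1500 UMIs and then gated, the ratios became -0.0047, -0.20 and -0.04, and that of Zbtb16 moved from 0.13 to 0.93. Thinning also removed UMIs of Cd4, Cd8a, Cd8b1 and Foxp3, so cells of other subsets could enter this one. The Il17/Il23r CD4 subset held 276 cells in WT_LW and 333 in TLR9agonist_LW, with Cd163l1 at 37.8 and 38.3 CPM. The part of such cells in the thinned ratios was not tested. A gate of at least 1 Il23r UMI leaves out the IL-17 cytokine genes. With it the ratios of Cd163l1, Blk and Sox13 were -0.88, -1.0003 and -0.57. The ratios of Maf (-0.02), Il7r (-0.08) and Cd44 (0.03) changed sign between settings or scalings, with ranges of -0.10 to 0.35, -0.22 to 0.18 and -0.08 to 0.35. Plek kept a ratio of 1.06 to 2.16 over these settings, with 1.36 as reported (interval 1.10 to 1.63).

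**Figure D2:**
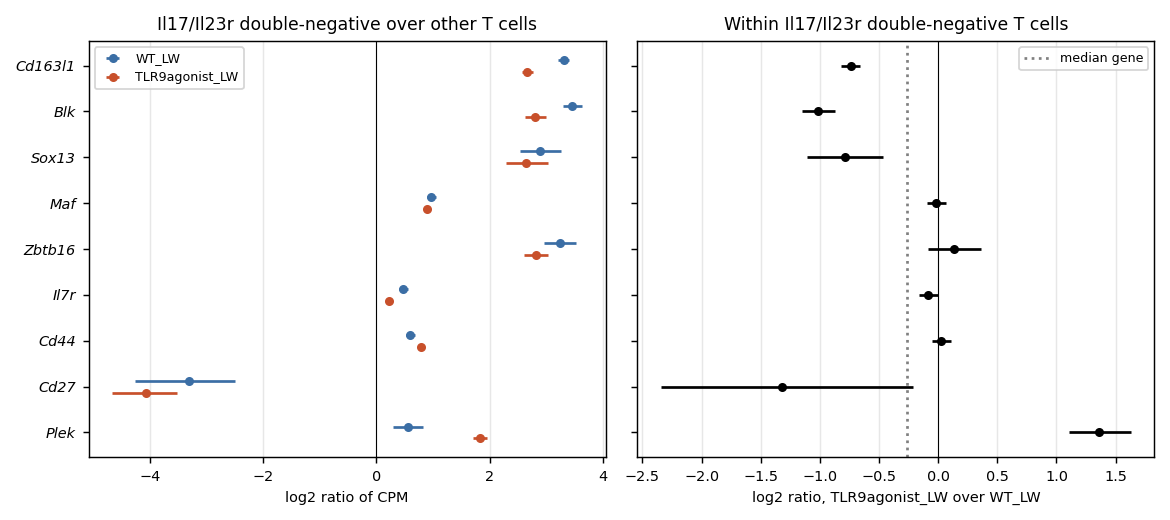
Left, log2 ratio of CPM in Il17/Il23r double-negative over all other T cells for each library. Right, log2 ratio of TLR9agonist_LW over WT_LW within that subset, with the median gene at -0.27 as a dotted line. Bars are 95% intervals for counting error, and Blk lies at 3.46 and 2.80 on the left and at -1.02 on the right.

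Over all T cells, of which the Il17/Il23r double-negative subset was 47.0% in TLR9agonist_LW and 9.67% in WT_LW, the directions were different. Cd163l1 stood at 139 CPM in WT_LW and 249 in TLR9agonist_LW (log2 ratio 0.84), Blk at 49.4 and 76.3 (0.63), Sox13 at 11.6 and 17.1 (0.56) and Zbtb16 at 17.4 and 54.97 (1.66). These 4 genes were thus higher in TLR9agonist_LW over all T cells, although 3 of them were lower within the subset. Cd27 stood at 57.5 and 24.6 CPM (-1.22), and Plek at 47.6 and 104 (1.12).

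The double-negative T cells were also split by how many Il17/Il23r UMIs each cell held, a division chosen after the data had been seen. In WT_LW, Cd163l1 stood at 152 CPM in cells with 0 such UMIs, 570 with 1, 791 with 2 to 4, 802 with 5 to 19 and 764 with 20 or more. In TLR9agonist_LW it stood at 113, 199.8, 366, 432 and 538 over the same 5 bins. WT_LW was thus higher in each bin, and the log2 ratio was -0.43 in cells with no such UMI, -1.51 in cells with 1 and -0.51 in cells with 20 or more. Blk gave ratios of -0.64, -1.94 and -0.78 in the same 3 bins.

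Maf and Zbtb16 crossed between the libraries over these bins. With 2 to 4 Il17/Il23r UMIs, Maf stood at 838 CPM in WT_LW and 599.8 in TLR9agonist_LW, and with 20 or more at 686 and 911. Zbtb16 stood at 88.6 and 72.3 in the first of these bins, where the intervals overlapped, and at 69.7 and 129 in the second. The difference in Plek was largest in the cells with 20 or more such UMIs, at 43.6 CPM in WT_LW (15 UMIs, interval 24.4 to 71.9) and 248 in TLR9agonist_LW (interval 236 to 262), a 5.70-fold difference (log2 ratio 2.51, interval 1.78 to 3.35). With 5 to 19 the log2 ratio of Plek was 0.31 (interval -0.04 to 0.68), with 2 to 4 it was 0.58 (interval 0.05 to 1.14) and with 1 it was 1.04 (interval 0.48 to 1.64). Within the subset only the last bin was above the ratio of 1.36 of the whole subset, and it held 1002 of 1835 cells in TLR9agonist_LW against 59 of 354 in WT_LW. In cells with no such UMI, Plek stood at 58.1 and 61.7, and the intervals overlapped.

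**Figure D3:**
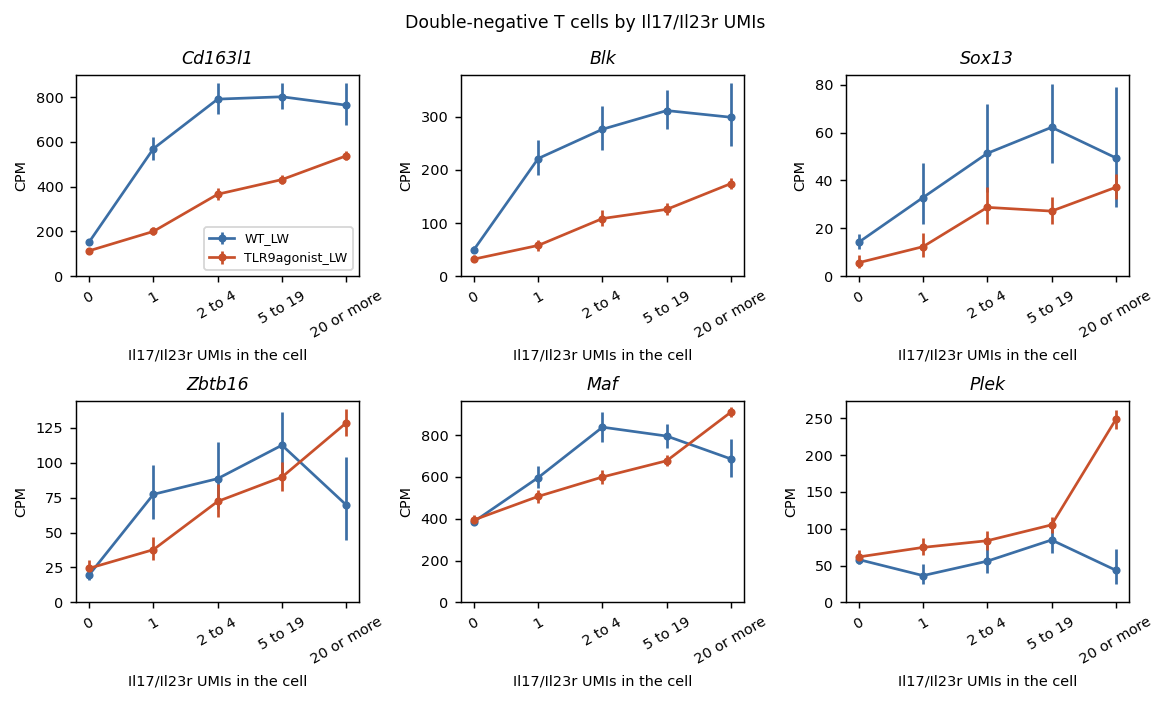
Level in CPM (linear axis from 0) of 6 of the genes in double-negative T cells binned by their UMIs of Il17a, Il17f and Il23r, with 95% Poisson intervals, for WT_LW (blue) and TLR9agonist_LW (orange). Plek of TLR9agonist_LW reaches 248 in the last bin against 43.6 in WT_LW, while Cd163l1 and Blk of WT_LW lie above TLR9agonist_LW in every bin.

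Co-detection asked whether the genes were found in the same cells. In T cells thinned to 1500 UMIs, which left 3580 and 3872 cells, 9 of the 36 pairs had an odds ratio of at least 2 in both libraries and 4 had an odds ratio of at most 0.5 in both. Pairs of other genes were not computed, so whether these counts are unusual among T cell genes cannot be told. Cd163l1 and Blk were found together in 210 cells of WT_LW, where 34.0 were expected from their separate shares, and in 297 cells of TLR9agonist_LW, where 141 were expected. Their odds ratio was 46.6 in WT_LW and 4.75 in TLR9agonist_LW. The pair of Cd163l1 and Zbtb16 had odds ratios of 26.6 and 4.90, that of Blk and Zbtb16 17.04 and 3.20, and that of Cd163l1 and Sox13 13.4 and 4.54. All 6 pairs among Cd163l1, Blk, Sox13 and Zbtb16 were among the 9, and the other 3 joined Maf to Cd163l1 (2.90 and 2.66), Blk (3.69 and 2.26) and Zbtb16 (3.11 and 2.01).

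The 4 pairs with low odds ratios all joined Cd27 to one of these markers. No cell of either library held both Sox13 and Cd27, against 8.69 and 4.20 expected, and Blk and Cd27 were together in 4 cells of WT_LW and 0 of TLR9agonist_LW, against 25.3 and 17.8 expected. A count of 0 at this depth limits cells with a UMI of both and does not show that both were absent.

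Odds ratios over all T cells mix subsets, and within the Il17/Il23r double-negative cells they were smaller. There 2 of 36 pairs had an odds ratio of at least 2 in both libraries, namely Cd163l1 with Zbtb16 (3.45 and 2.01) and Cd163l1 with Sox13 (2.25 and 2.02). The pair of Cd163l1 and Blk had 5.37 in WT_LW and 1.86 in TLR9agonist_LW. Among the other T cells the odds ratio of Cd163l1 and Blk was 69.0 and 12.2, so cells that carried both genes were also found among T cells outside the subset.

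**Figure D4:**
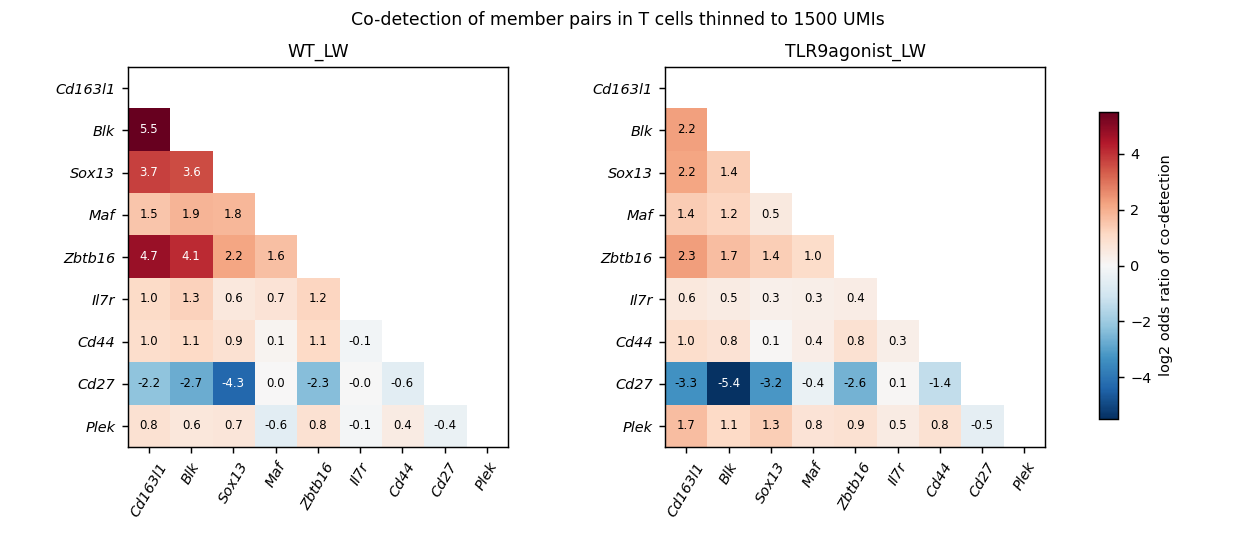
Log2 odds ratio of finding both genes of a pair in the same T cell, for cells thinned to 1500 UMIs, in WT_LW (left) and TLR9agonist_LW (right). The printed value is the log2 odds ratio. Red cells are pairs found together more often than expected and blue cells less often, and the row of Cd27 is blue against Cd163l1, Blk, Sox13 and Zbtb16 in both libraries.

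Cells were next grouped by how many of Cd163l1, Blk and Sox13 they held, with no gate gene used. In WT_LW, 243 of 3580 thinned T cells (6.79%) held 2 or 3 of them, and in TLR9agonist_LW 364 of 3872 (9.40%). Cd4 was detected in 0.412% and 0.549% of these cells, against 21.6% and 13.9% of T cells that held none of the 3. At least 1 UMI of Il17a, Il17f or Il23r was found in 51.0% of them in WT_LW and 85.7% in TLR9agonist_LW, against 12.5% and 41.1% of T cells that held none of the 3. Il23r was found in 5.76% and 12.9%, Maf in 73.3% and 67.6%, and Zbtb16 in 23.0% and 22.8%. Cd27 was found in 1.23% and 0% of them, where 0 of 364 cells allows, by a limit of 3 counts, up to 0.824% of cells with a Cd27 UMI at this depth. Plek was found in 9.47% and 26.4%, against 4.90% and 7.96% of the T cells that held none of the 3. Within the Il17/Il23r double-negative subset 34.6% of WT_LW and 17.2% of TLR9agonist_LW cells held 2 or 3 of the genes, and 35.1% and 40.3% held none. The subset held 122 of the 243 cells with 2 or 3 in WT_LW and 313 of the 364 in TLR9agonist_LW. Of double-negative cells with 1 Il17/Il23r UMI 24.7% and 7.42% held 2 or 3, and of those with 0 such UMIs 7.78% and 4.35%. In the CD4, regulatory, CD8 and mixed subsets the share was 0% to 1.61%.

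The genes whose levels over the 8 subsets and 2 libraries were most like those of Cd163l1 were Blk (Pearson r of log2 levels 0.966), Zbtb16 (0.964), Psd2 (0.946), Igf1r (0.931) and Neat1 (0.93). For Blk they were Cd163l1 (0.966), Psd2 (0.951), Ablim3 (0.939), Zbtb16 (0.938) and Clnk (0.923), and for Sox13 they were St3gal3 (0.907), Blk (0.899), Pi4k2a (0.89), Slc6a13 (0.89) and Coro2b (0.883). These are descriptions over 16 points from 2 libraries and 12945 genes, in which the points of a library share its depth and its free RNA.

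Outside the T cells the genes differed in how particular they were to T cells. Of all UMIs of Cd163l1, T cells held 89.9% in WT_LW and 92.2% in TLR9agonist_LW, and of those of Blk 92.6% and 93.5%. For Zbtb16 the share was 73.4% and 86.4% and for Cd27 81.2% and 82.4%. In NK cells, with only 15 and 8 cells, Cd163l1 stood at 27.9 and 32.5 CPM on 2 and 1 UMIs. In neutrophils it stood at 17.3 CPM in WT_LW on 1 UMI (interval 0.437 to 96.2) and at 17.2 in TLR9agonist_LW on 5 UMIs (interval 5.59 to 40.2). In keratinocytes and fibroblasts Cd163l1 stood at 1.88 to 4.92 CPM and Blk at 0.724 to 1.30. Thinned to 1500 UMIs, 0.714% and 0.716% of the fibroblasts without a Cd3 UMI had a Cd163l1 UMI, at median depths of 12655 and 11964 UMIs before thinning, against 55.8% and 49.7% of the Il17/Il23r double-negative cells. Sox13 was also expressed outside T cells, with 49.3 and 13.8 CPM in endothelial cells and 33.5 and 24.7 in Schwann cells, and T cells held only 31.0% and 60.4% of its UMIs.

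Plek, Cd44 and Maf were broad. Plek stood at 818 CPM in mast cells of WT_LW and 3041 in those of TLR9agonist_LW, at 846 and 991 in neutrophils and at 385 and 463 in macrophages or dendritic cells, and T cells held 10.99% and 20.1% of its UMIs. Cd44 reached 1537 and 891 in neutrophils, and Maf 215 and 615 in macrophages or dendritic cells. Because RNA of other cells can enter a droplet, their markers were summed in the Il17/Il23r double-negative subset. The 6 mast cell markers were all detected and summed to 1180 CPM in WT_LW and 136 in TLR9agonist_LW. Of 6 neutrophil markers, 3 were detected in WT_LW and 5 in TLR9agonist_LW, with sums of 127 and 3501, and all 8 macrophage and dendritic markers were detected, with sums of 1160 and 344. The 8 fibroblast markers and the 8 keratinocyte markers, all detected, summed to 2207 and 661 in WT_LW and to 7817 and 2919 in TLR9agonist_LW. In the other T cells the neutrophil markers summed to 364 CPM in WT_LW and 3008 in TLR9agonist_LW, and the mast cell markers to 149 and 244. The macrophage and dendritic markers summed there to 1301 and 597, the fibroblast markers to 5925 and 8272.5, and the keratinocyte markers to 1739 and 2706. The part of RNA from these other cell classes in the Plek difference was not tested. Without the T cells that also met the marker rule of another class (25.4% and 17.8% of the subset), the log2 ratio of Plek was 1.92, that of Cd163l1 -0.56, that of Blk -0.84 and that of Sox13 -0.60.

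**Figure D5:**
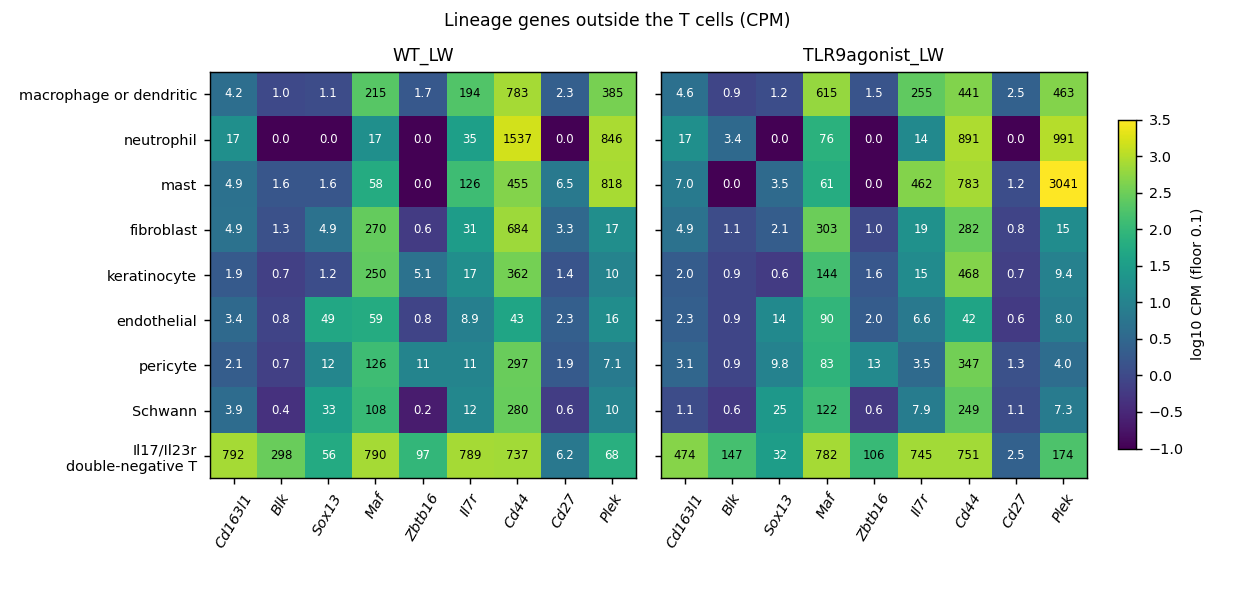
Level of each gene in 8 classes of cells other than T cells, named by fixed markers, and in the Il17/Il23r double-negative T cells (bottom row), with the value in CPM printed in each field and colour on a log10 scale. Cd163l1 and Blk stay at or below 17.3 in these 8 classes (NK cells, with 15 and 8 cells, are not drawn), while Plek reaches 3041 in mast cells of TLR9agonist_LW.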

How the data were processed

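Skin cells of 2 groups were measured with droplet 3' single-cell RNA sequencing (10x Genomics), 1 library per group, so that no p-value was computed. The submitters' processing notes name fastp, Cell Ranger (4.0.0 in the matrix header) and Seurat and the build mm9. Gene IDs were looked up in GENCODE M21 (GRCm38), which held 27722 of the 27998. The deposited values are counts of UMIs per gene and cell, made by the authors with Cell Ranger and not normalized. The deposited matrices held 12800 (WT_LW) and 13751 (TLR9agonist_LW) cells. Cells were left out when they held fewer than 500 UMIs, fewer than 300 genes or more than 15% mitochondrial UMIs, and the highest Scrublet scores (0.8% per 1000 cells, 1048 and 1395 cells) were removed as doublets. Levels in CPM come from UMIs summed per subset, with Poisson intervals (exact). Ratios have exact conditional intervals and shares Clopper-Pearson intervals at the 95% level. Genes with at least 20 UMIs in both sides together were counted. For detection, cells were thinned to 1500 UMIs and shallower cells were left out. Odds ratios have 0.5 added to each cell of the 2 by 2 table. Other cell classes needed 3 markers with a UMI and a margin of 0.25. Genes named beside the 9 were taken by rule, apart from the list genes that did not pass, which are examples. The rule took genes of the lists past the log2 threshold in both libraries (at most 6 per direction, by the smaller ratio). It also took the leading 10 of the subset and the 5 most alike. Members, lists and gates were chosen with earlier results of these data known. The gate on Il17a, Il17f and Il23r was set after the data had been seen. Of the settings fixed earlier 11 were computed, and 2 others (the Il23r gate and the bins) were added after seeing the data. The scripts were tested on simulated data. Some T cell genes are not reported here. Tools were scanpy 1.11.5, scipy 1.17.1, matplotlib 3.10.9, pandas 2.3.3 and numpy 2.4.6 under Python 3.11.15.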

Additional observations from a re-analysis of the deposited data

Results flagged for a closer look

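For 4 of the genes, the difference between the libraries in another T cell subset had the opposite sign to that in the Il17/Il23r double-negative cells, with intervals for counting error on either side of 0. With 1 library per group none of these differences between subsets was tested over samples. The log2 ratio of TLR9agonist_LW over WT_LW for Cd163l1 was 0.89 in regulatory T cells and 0.92 in CD8 T cells, and 2.24 in the mixed cells (on 8 and 19 UMIs), against -0.74 in the Il17/Il23r double-negative cells. For Blk it was 1.02 in regulatory T cells (on 16 and 21 UMIs, interval 0.007 to 2.05), against -1.02. Both genes were low in these subsets, with Cd163l1 at 17.3 and 32.1 CPM in regulatory T cells and at 26.3 and 49.8 in CD8 T cells. For Il7r the ratio was 0.49 in Il17/Il23r CD4 T cells and 0.44 in regulatory T cells, 0.22 in double-negative cells with 0 Il17/Il23r UMIs and 0.28 in the mixed cells, against -0.08. That last value was close to 0 (interval -0.16 to -0.003) and changed sign between settings (-0.22 to 0.18). Relative to the median gene of each subset, Il7r was above 0 throughout, at 0.64, 0.66, 0.56 and 0.50 against 0.18, so its opposite sign depended on the scaling. For Plek it was -0.43 in other CD4 T cells and -1.30 in regulatory T cells, against 1.36.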

How the results depend on the processing

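With 1 library per group, intervals cover counting error only, and neither the mice within a pool nor a repeat library can be assessed. No paired analysis was possible because each group has 1 library. The gate on Il17a, Il17f and Il23r was chosen after seeing the data, in place of an earlier one, and 1 planned gate was not run. The number of pairs with an odds ratio of at least 2 in both libraries was 9 as reported and 14 without thinning. The log2 ratio of the subset's share of T cells was 2.28 as reported, 1.98 with a gate of at least 1 UMI of these genes and 2.04 with a gate of at least 1 Il23r UMI, which was added after seeing the data. In the bins of Il17/Il23r UMIs, also chosen after seeing the data, the log2 ratio between libraries for Cd27 was 0.087 in cells with 2 to 4. It rested on 3 UMIs in WT_LW and 10 in TLR9agonist_LW (interval -1.87 to 2.59), and this interval holds the -1.32 of the whole subset. The causes were not tested. Over 10 settings the ratio of the subset over other T cells kept its sign for 9 of 9 genes in TLR9agonist_LW and for 8 of 9 in WT_LW, where Plek ran from -0.14 to 0.84. Blk ran from 2.33 to 3.85 in WT_LW and from 1.43 to 3.19 in TLR9agonist_LW, and Cd163l1 from 2.32 to 3.59 and from 1.46 to 3.03. Of the values recomputed under the other settings, apart from the bins, 164 stayed within their counting interval or, for counts, close to the reported count, and 106 did not.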
